A study of Mus musculus with 8 samples.

Results

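The semaphorins are a family of secreted and membrane-bound guidance proteins, and the plexins and neuropilins are their receptors. The family here comprised 31 genes, 20 semaphorins, 9 plexins and 2 neuropilins, taken as every probe whose gene name in the scanner output was one of these genes and that was present on both array designs of the series. They were read by 44 of 39429 shared probes, and are 31 of 30142 named genes. RNA was measured on 8 one-colour arrays of GFP-positive cells sorted from kidney rudiments of NMRI mouse embryos at E11.5. The 3 control pools came from Tbx18(GFP/+) embryos, which carry GFP in 1 of their Tbx18 alleles. The 3 null pools came from Tbx18(GFP/GFP) embryos, which have no other Tbx18 allele. The 2 Tbx18VP16 pools came from Tbx18(cre/+) embryos that carried a CAG:Tbx18VP16-GFP construct at Hprt, a fusion of Tbx18 with the VP16 activation domain. Every group thus carried at least 1 altered Tbx18 allele, the sorted cells were marked by GFP from a different locus in Tbx18VP16, and each pool mixed both sexes and several rounds of sorting. The labels do not say that pools came from separate litters, so p-values measure only the spread between these pools.

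Class 3 semaphorins are secreted and mostly bind a neuropilin, which holds the ligand, together with an A-type plexin, which carries the signal into the cell; Sema3e is an exception and binds plexin D1 directly. Classes 4 to 6 are transmembrane proteins that signal mainly through B-type and A-type plexins, and the class 7 protein Sema7a is anchored to the membrane by a lipid and binds plexin C1 and integrins. Plexins act on small GTPases and so on the cytoskeleton and cell adhesion, and in the developing kidney the family is known for effects on ureteric branching and on blood vessels. Tbx18, a transcription factor with a T-box DNA-binding domain, is found in mesenchymal cells around the early ureter.

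Promoters are shown for the member that passed the test (Sema3e), for the 2 members whose null and control arrays lay furthest apart (Sema5b and Plxnc1), and for Nrp2, which carries letters that a T-box protein can bind. Each is the 250 bases before the annotated start, 5′ to 3′ on the gene's strand, from RefSeq on build GRCm38.p6. Sema3e lies at chr5:14025026-14025275 on the plus strand, Sema5b at chr16:35541112-35541361 on the plus strand, Plxnc1 at chr10:94944846-94945095 on the minus strand and Nrp2 at chr1:62703067-62703316 on the plus strand. Capitals mark the T-box core.
Sema3e: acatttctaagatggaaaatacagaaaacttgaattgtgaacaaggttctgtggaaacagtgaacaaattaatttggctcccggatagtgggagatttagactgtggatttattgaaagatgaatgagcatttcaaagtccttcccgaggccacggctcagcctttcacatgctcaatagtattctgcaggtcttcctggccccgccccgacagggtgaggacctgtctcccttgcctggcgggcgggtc
Sema5b: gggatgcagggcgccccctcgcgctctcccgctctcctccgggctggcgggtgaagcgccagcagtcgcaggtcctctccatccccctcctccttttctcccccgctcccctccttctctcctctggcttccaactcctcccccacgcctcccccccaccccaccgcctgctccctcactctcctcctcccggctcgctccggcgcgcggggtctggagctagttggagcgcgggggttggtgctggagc
Plxnc1: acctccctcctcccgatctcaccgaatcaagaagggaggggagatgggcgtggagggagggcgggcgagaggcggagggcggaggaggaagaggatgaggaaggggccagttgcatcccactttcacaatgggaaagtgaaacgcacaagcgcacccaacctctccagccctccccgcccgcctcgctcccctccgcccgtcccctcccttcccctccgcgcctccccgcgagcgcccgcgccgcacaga
Nrp2: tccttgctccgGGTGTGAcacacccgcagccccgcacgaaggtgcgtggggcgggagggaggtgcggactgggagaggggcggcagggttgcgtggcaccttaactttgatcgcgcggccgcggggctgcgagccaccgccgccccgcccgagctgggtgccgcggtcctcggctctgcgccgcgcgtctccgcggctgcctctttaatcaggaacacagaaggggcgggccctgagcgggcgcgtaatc
The stretch of Sema3e held 48% G and C and 7 CpG pairs, close to the median of 52.4% and 6 over 32851 such stretches. Those of Sema5b (72%, 19 CpG pairs), Plxnc1 (68.8%, 22 CpG pairs) and Nrp2 (72.4%, 32 CpG pairs) were richer in both. The search used the T-box site AGGTGTGA and its core GGTGTGA, which lies within it, on both strands of windows reaching 50 bases past the start. The full site was present in 1.28% of all windows and in 1 of the 37 windows that matched 26 members, that of Sema4a, at 40 bases past the start. The core was present in 3.98% of all windows and in 3 of the 37: in Nrp2, at position -239 from the start, in Sema4a, and on the reverse strand in Sema6c. A match describes the letters only.

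Each level is the log2 processed signal, set so that 0 is the 75th percentile of its array. Levels of different probes are not compared. Between 60.1% and 66% of probes were well above background on an array, and the 75th percentile of the signal lay between 976 and 2129 units. Tbx18 stood at -0.02, 1.20 and 1.04 on the control arrays, at -2.40, -1.34 and -2.35 on the null arrays and at 1.34 and 1.06 on the Tbx18VP16 arrays. The null arrays were all below the others, by 2.77 ± 0.44 (SE) against control, with an adjusted p of 0.118 in limma, or 0.0323 when the replicate number entered as a block. All 16 markers of kidney rudiment mesenchyme were well above background in every group, with a summed linear level of 261 to 325 in control, 225 to 295 in null and 272 to 312 in Tbx18VP16. Null replicate 3 stood apart: its summed levels were 19.1 for 13 endothelial markers, against 2.08 to 4.97 elsewhere, 543 for 12 erythroid markers, against 3.51 to 31, and 16 for 15 markers of ureteric epithelium, against 2.78 to 6.95. The 9 markers of megakaryocytes and platelets summed to 4.64 and 9.12 in Tbx18VP16, against 0.0792 to 0.124 in control and 0.104 to 1.70 in null. The 11 markers of macrophages and white blood cells summed to 1.28 to 1.54 in control, 1.67 to 3.24 in null and 1.43 and 2.17 in Tbx18VP16. The 12 markers of neural crest, neurons and glia summed to 12.8 to 18.9, 13.5 to 18.0, and 12.9 and 14.4 in the same groups. The part of these cells in the family's values was not tested except where values without null replicate 3 are given, and in sorted pools fewer cells of a type and less RNA per cell cannot be told apart.

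Of the 44 probes, 33 were well above background on all 8 arrays and 2 on none. Several class 3 ligands were dim. Sema3e was well above background on 0 of 3 control arrays, 3 of 3 null arrays and 2 of 2 Tbx18VP16 arrays. Sema3d, a secreted ligand, was so on 1 of 3 control and 2 of 3 null arrays and on neither Tbx18VP16 array, and the brighter Sema3a probe was so on 2, 2 and 2 arrays. The B-type plexin Plxnb3 was well above background on 2 null arrays only and could be tested only in the fits over all 8 arrays, so 30 members were tested in null against control and 31 in the other comparisons.

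**Figure D1:**
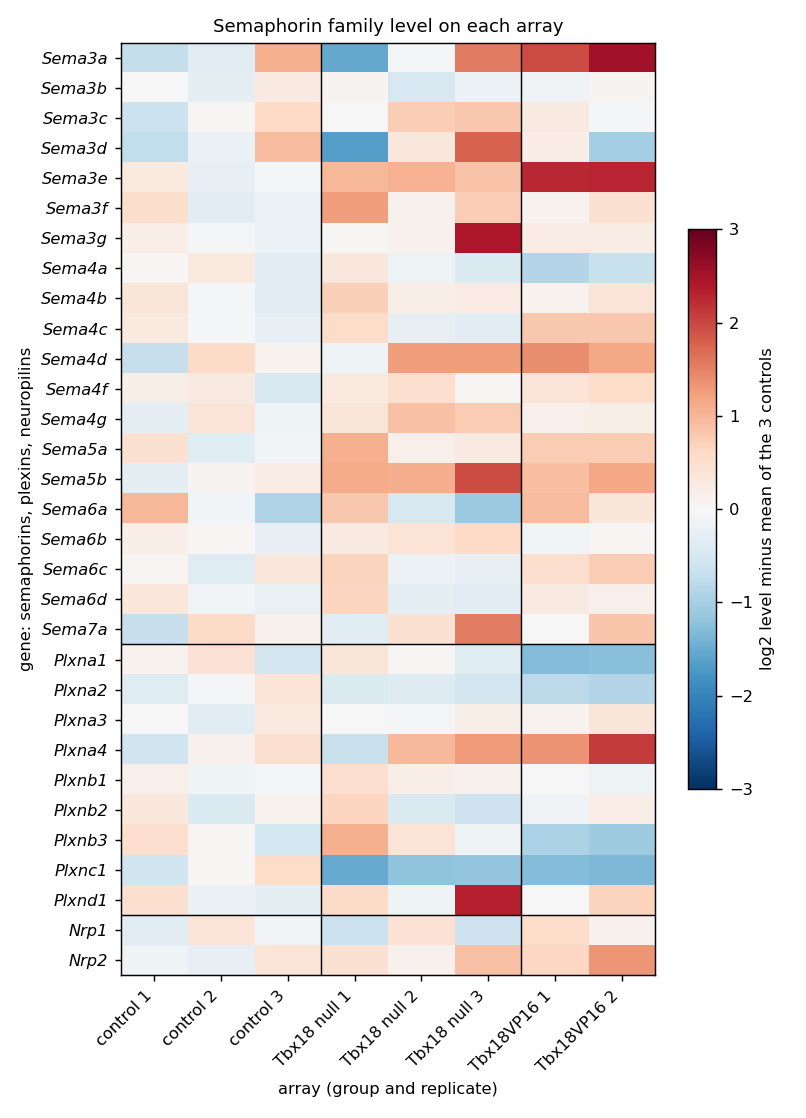
Level of each of the 31 members (1 probe each, rows) on each of the 8 arrays (columns), as the log2 level minus the mean of the 3 control arrays, in red where higher and blue where lower; the colour scale spans -3 to 3. Sema3e is red on both Tbx18VP16 arrays, Plxnc1 is blue on all 5 null and Tbx18VP16 arrays, and Plxnd1 and Sema3g are high only on null replicate 3.

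The first comparison asks which transcripts differ when Tbx18 is lost. In null against control, no member passed an adjusted p of 0.05 in limma; over all 19711 genes tested, 0% passed. At an unadjusted p under 0.05 there were 4 of 30 members, Sema3e, Sema4g, Sema5b and Plxnc1, against 4.82% of all genes. Sema3e passed the filter on dim probes only through the null arrays, where it is high, so it had to differ and adds no support to this count or to that of separated arrays. Of the semaphorins, 15 of 20 had a higher mean in null, with a median difference of 0.40, against 0.01 over all genes, of which 51.3% were higher. Of the plexins and neuropilins, 6 of 10 were higher, with a median of 0.03. Arrays of the groups did not overlap for 3 semaphorins, higher in null (Sema3e, Sema5b and Sema6b), and for 2 plexins, lower in null (Plxnc1 and Plxna2), where 7.75% of all genes were separated, 4.16% higher and 3.59% lower. Without null replicate 3, 17 of 20 semaphorins were higher in null, the family median was 0.19 in place of 0.28, that of all genes was 0.06, and no member passed the test.

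Sema5b encodes a transmembrane semaphorin with thrombospondin repeats. Its brightest probe, at mm9 chr16:35664281-35664340, stood at -3.53, -3.16 and -3.03 on the control arrays, at -2.13, -2.14 and -1.29 on the null arrays, and at -2.33 and -2.08 on the Tbx18VP16 arrays. Every null array was above every control array. The difference was 1.39 ± 0.32 (SE), 2.62-fold, with an adjusted p of 0.322 in limma and 0.0564 with the replicate block. Same-numbered pools differed by 1.41 and 1.02 on the slide that held replicates 1 and 2 and by 1.74 on the slide of replicate 3. The other Sema5b probes, which lie nearby, differed by 1.34 ± 0.28 and 0.81 ± 0.31, and for each of the 3 probes all null arrays were above all control arrays.

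Plxnc1 encodes plexin C1, the receptor of Sema7a. Its brighter probe, at mm9 chr10:94253879-94253938, stood at -1.27, -0.64 and -0.13 in control, at -2.20, -1.89 and -1.86 in null and at -1.98 and -2.03 in Tbx18VP16. All null and Tbx18VP16 arrays were below all control arrays. Null was lower than control by 2.46-fold, a log2 difference of -1.3 ± 0.33 (SE), with an adjusted p of 0.400 in limma and 0.0691 with the replicate block. Same-numbered pools differed by -0.93, -1.25 and -1.73. The second probe gave -1.61 ± 0.44 between the same groups, again with no overlap. Sema7a, its ligand, stood at -4.95 ± 0.64 (SD, n = 3) in control and -4.40 ± 0.93 (SD, n = 3) in null, a difference of 0.55 ± 0.53 (SE) with an adjusted p of 1 in limma, and of 0.06 without null replicate 3.

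Sema3e stood at -6.04, -6.57 and -6.38 in control, at -5.33, -5.30 and -5.48 in null and at -4.07 and -4.04 in Tbx18VP16. The 3 groups did not overlap and were ordered control, null, Tbx18VP16. Its probe, at mm9 chr5:14256598-14256656 and 6769 bases into the transcript, is dim, with processed signals of 14.2 to 21.2 in control, 25.7 to 37.7 in null and 126 and 130 in Tbx18VP16. Because no control array was well above background, the null level is given as at least 1.93-fold higher, with a measured log2 difference of 0.96 ± 0.24 (SE) and an adjusted p of 0.386 in limma, or 0.0837 with the replicate block. These p-values give no support, since the probe was tested only because the null arrays were above background. Plxnd1, the receptor that Sema3e binds, stood at -0.17, -0.84 and -0.93 in control, at -0.07, -0.77 and 1.69 in null and at -0.65 and 0.02 in Tbx18VP16. Only null replicate 3 lay above the other arrays for Plxnd1, and its second probe showed the same, at 0.13 on that array and between -2.78 and -1.40 on the others. The difference between null and control was 0.93 ± 0.61 (SE, adjusted p = 1 in limma) with that pool and 0.23 without it.

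Sema3g, a secreted ligand known from blood vessels, shared that pattern. It stood at -2.86 on null replicate 3 and between -5.45 and -5.04 on the other 7 arrays. Its difference between null and control was 0.86 ± 0.62 (SE) with that pool and 0.08 without it. The endothelial markers Cldn5 and Cdh5 stood at 2.36 and -0.62 on the same array, and on the other arrays Cldn5 was between -3.51 and -0.62 and Cdh5 between -6.84 and -3.99. Not every marker of that list was raised there. Kdr stood at 0.20, inside its range of -1.34 to 0.49 on the other arrays, and Erg was well above background on 0 arrays. The part of endothelial RNA in these values was not tested; Plxnd1 and Sema3g were singled out after their values were seen.

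**Figure D2:**
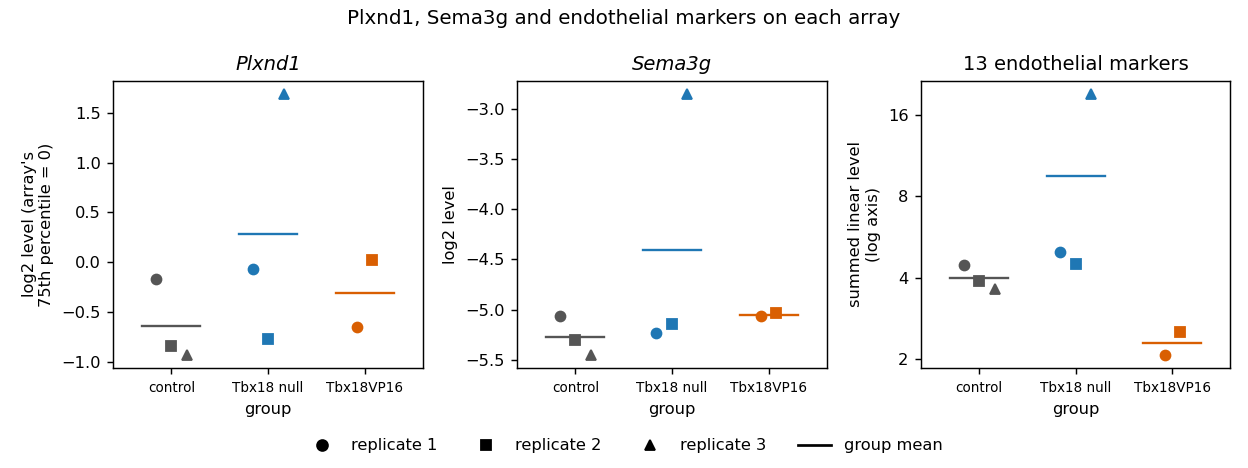
Level of Plxnd1 and Sema3g on each array (log2, left and middle) and the summed linear level of 13 endothelial markers (right, log axis, in units of the array's 75th percentile), by group; symbols give the replicate and lines the group mean. Null replicate 3 is the highest array in each panel, at 1.69, -2.86 and 19.1.

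The remaining secreted ligands had wide intervals in null against control. The intervals given for this comparison are those of the main fit, which does not use the pairing of same-numbered pools. Sema3f, a neuropilin-2 ligand, differed by 0.71 (95% interval -0.17 to 1.6) and Sema3c, which acts on vessel and outflow tract development, by 0.51 (-0.41 to 1.44). Same-numbered pools differed by 0.73, 0.48 and 0.93 for Sema3f and by 0.65, 0.70 and 0.19 for Sema3c. For Sema3a, Sema3b and Sema3d these pool differences were not all of 1 sign. Sema3b differed by -0.19 (-0.81 to 0.43), and the intervals of Sema3a and Sema3d reached -1.91 to 1.89 and -1.85 to 2.15. In class 4, whose members signal mainly through B-type plexins, 4 of 6 had higher means: Sema4d by 0.79, Sema4g by 0.66, Sema4b by 0.38 and Sema4f by 0.28, none past the threshold. Sema4g stood at -1.78, -1.13 and -1.63 in control and at -1.16, -0.64 and -0.76 in null, groups that overlapped at 1 array. Sema5a differed by 0.50 (-0.32 to 1.32). In class 6, transmembrane ligands of A-type plexins, Sema6b differed by 0.43 (-0.13 to 0.98). Sema6c and Sema6d differed by 0.09 and 0.01 at their brighter probes and by 0.63 and 0.36 at their dimmer ones. Sema6a differed by -0.27 at its brighter and -0.71 at its dimmer probe, and the groups did not overlap at the dimmer.

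Among the receptors, the neuropilin differences were opposite in sign in null against control. Nrp2, co-receptor for Sema3f and for VEGF ligands, was 0.49 higher (-0.22 to 1.19), and Nrp1, co-receptor for Sema3a, was 0.28 lower (-1.15 to 0.58). With the replicate block the SE of Nrp2 was 0.12 in place of 0.30 (adjusted p = 0.192 in limma). That of Nrp1 was 0.16 in place of 0.37 (adjusted p = 0.532). The dimmer Nrp2 probe was 0.63 ± 0.25 (SE) higher, with no overlap of the groups. Plxna2, a receptor of class 6 ligands, stood at 1.80, 2.10 and 2.58 in control and at 1.72, 1.78 and 1.61 in null. Its groups did not overlap, but the difference of -0.46 ± 0.27 (SE) had an adjusted p of 1. Plxna1, Plxna3, Plxnb1 and Plxnb2 differed by 0.01, 0.05, 0.28 and -0.13, within intervals that all included 0.

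The second comparison asks which transcripts differ when an activating form of Tbx18 is present, as the labels state. The Tbx18 probe did not show the added copy clearly, at 0.46 ± 0.45 (SE) above control with an adjusted p of 0.582 in limma, and no source used here says whether it can read the construct. Group, array design, slide and scan cannot be told apart here, because both Tbx18VP16 arrays were of another design and on a slide of their own. Sema3e, secreted and plexin D1-binding, was the 1 member of 31 that passed the test, and it rose; 5.32% of 20600 genes passed in either direction and 2.04% rose. It was at least 4.78-fold higher in Tbx18VP16 than in control, with a measured log2 difference of 2.27 ± 0.24 (SE) and an adjusted p of 0.00306 in limma. No control array was well above background, so the probe entered this test only through the null and Tbx18VP16 arrays, where it is high. The p-value against control therefore gives no support. Sema3e was also 2.48-fold higher in Tbx18VP16 than in null, by 1.31 ± 0.24 (adjusted p = 0.0290), where 3.66% of genes passed and 1.17% rose. Its levels on the 8 arrays are those given above, with both Tbx18VP16 arrays above the other 6.

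The Sema3e call rested on few and dim measurements. With normexp background correction, which adds 50 units to every signal, the difference from control was 0.65 (adjusted p = 0.210) and that from null 0.36 (adjusted p = 0.431). Without Tbx18VP16 replicate 1 or 2, the difference from control was 2.29 and 2.26, with adjusted p of 0.0550 and 0.0701, and that from null 1.33 and 1.3, with 0.236 and 0.296. The call against null was also lost without null replicate 2 (0.0859) or 3 (0.0635). A fit of the 2 groups alone gave 0.0517.

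**Figure D3:**
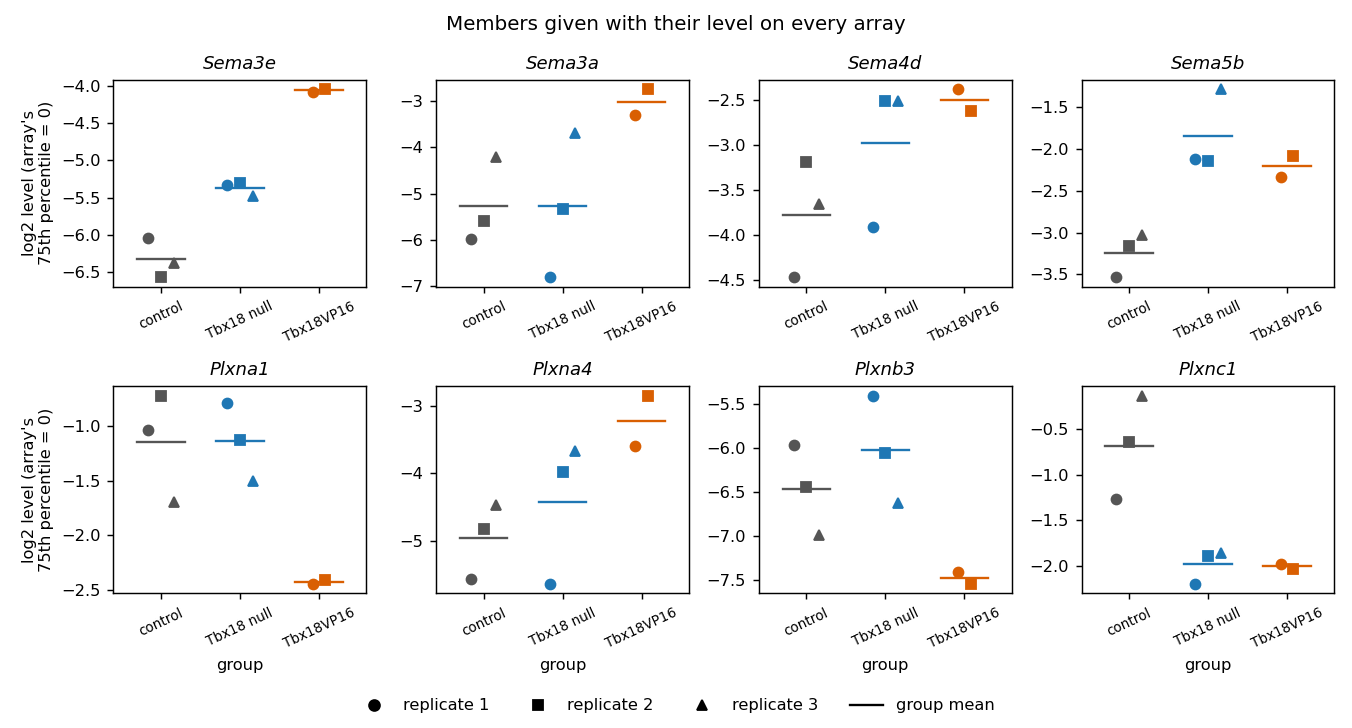
Log2 level (the array's 75th percentile is 0) of the 8 members that met the rule for showing every array, by group. Symbols mark the replicate and lines the group mean, and each panel has its own axis. Sema3e separates all 3 groups, with control between -6.57 and -6.04 and Tbx18VP16 at -4.07 and -4.04, while Plxna1 is lowest on the Tbx18VP16 arrays; Plxnb3 is above background on 2 null arrays only.

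The rest of the family was not past the threshold in Tbx18VP16 against control, and 12 of 31 members were at an unadjusted p under 0.05 against 22.8% of all genes. Sema3e and Plxnb3 were among the 12, but neither was well above background on a control array, so they add no support to this count. By mean, 16 of 20 semaphorins and 6 of 11 receptors were higher, against 40.8% of all genes. The family median was 0.26 where that of all genes was -0.14. With the 75th percentile taken over all non-control spots, which moves the median of all genes to 0.32, 26 of 31 members were higher, against 68.9% of all genes. All genes called divided into 420 higher and 675 lower as reported, 1132 and 251 with that scaling (6.71% in all), and 565 and 564 when limma was run on the authors' deposited value table (5.48%). Arrays did not overlap for 11 higher members, 9 of them semaphorins, and for 5 lower ones, Sema4a and 4 plexins; 47.6% of all genes were separated, 17.4% higher and 30.3% lower. One of the plexins, Plxnb3, was not well above background in either group, so its separation orders background values only. Sema3e, among the 11 higher members, adds no support either, since no control array was well above background.

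Sema3a, the neuropilin-1 ligand that repels growing axons, was high in Tbx18VP16 but varied widely among the other pools. It stood at -5.98, -5.59 and -4.21 in control, at -6.80, -5.32 and -3.69 in null and at -3.31 and -2.75 in Tbx18VP16. Both Tbx18VP16 arrays were above the other 6, and controls and nulls overlapped. The difference from control was 2.23 ± 0.86 (SE, adjusted p = 0.173 in limma) and that from null 2.24 ± 0.86 (adjusted p = 0.180). A second, dimmer Sema3a probe was well above background on 1 of 8 arrays, a Tbx18VP16 array.

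Sema4d, the plexin B1 ligand also carried by platelets and lymphocytes, stood at -4.47, -3.19 and -3.66 in control, at -3.91, -2.52 and -2.51 in null and at -2.38 and -2.62 in Tbx18VP16. Tbx18VP16 arrays were above all controls and overlapped the nulls. The difference from control was 1.27 ± 0.51 (SE, adjusted p = 0.191 in limma). The platelet markers were also highest in these pools, as given above, and their part in the Sema4d level was not tested. Sema4c, the plexin B2 ligand, stood at 5.56, 5.21 and 5.02 in control, at 5.81, 5.03 and 4.94 in null and at 6.06 on both Tbx18VP16 arrays, above all others. Its difference of 0.80 ± 0.32 (SE) from control had an adjusted p of 0.188, and with quantile normalization it was 1.19 with 0.0330. Sema4a was lower in Tbx18VP16, by -0.77 ± 0.30 (SE), and its arrays of -1.68 and -1.46 lay below all 6 others (adjusted p = 0.174).

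Sema5b gave different answers at its 3 probes in Tbx18VP16. The brightest, described above, was higher than control by 1.04 ± 0.32 (SE, adjusted p = 0.113 in limma), with no overlap. The second differed by 0.36 ± 0.29 and the third by -0.36 ± 0.32, so the direction was not shared. All 3 probes were higher in null than in control. Nrp2 likewise differed between its probes: the brighter was 0.97 ± 0.34 (SE) above control in Tbx18VP16 (adjusted p = 0.147), and the other, on another RefSeq transcript, 0.23 ± 0.27.

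**Figure D4:**
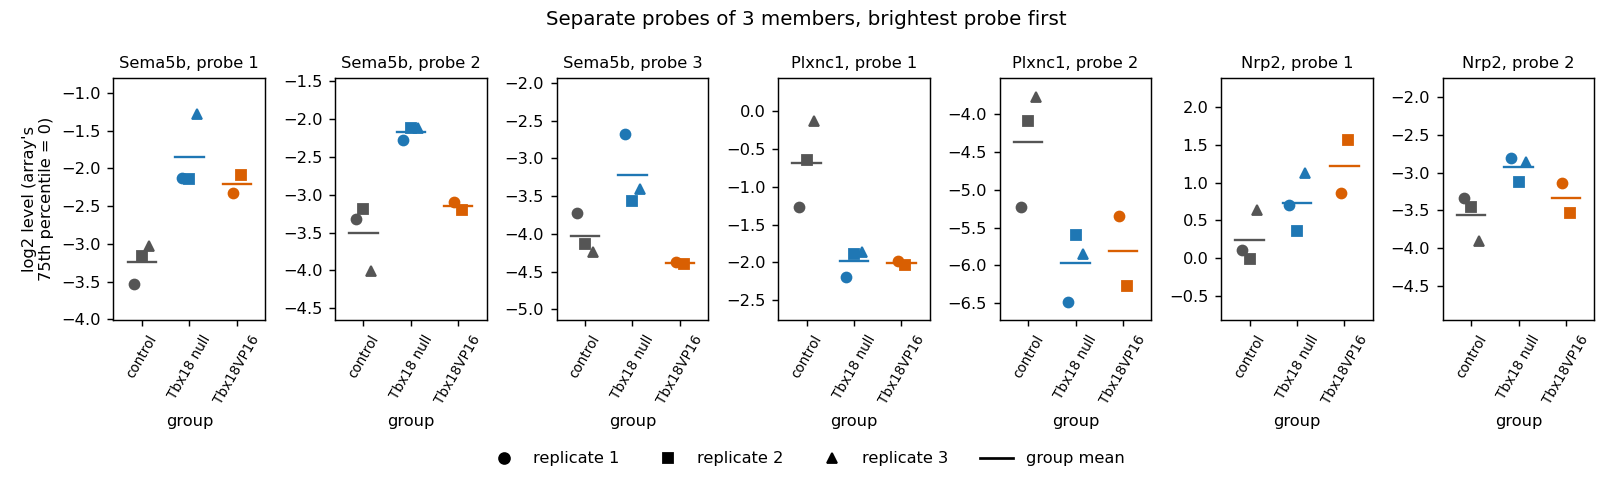
Log2 level (the array's 75th percentile is 0) at each probe of Sema5b, Plxnc1 and Nrp2, by group, with the replicate as symbol and the group mean as line; each panel spans 3.2 log2 units. The null arrays are above control at all 3 Sema5b probes and below control at both Plxnc1 probes, while the Tbx18VP16 arrays are above control at the first Sema5b probe and below at the third.

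The A-type plexins, the signalling receptors of class 3 and class 6 ligands, differed in direction in Tbx18VP16. Plxna1 stood at -1.03, -0.72 and -1.70 in control, at -0.79, -1.12 and -1.51 in null and at -2.45 and -2.41 in Tbx18VP16. Both Tbx18VP16 arrays were below the other 6, by -1.28 ± 0.34 (SE) against control (adjusted p = 0.0729 in limma) and -1.29 ± 0.34 against null (0.0788). The call against control was made at 0.0418 without control replicate 3 and at 0.0486 without null replicate 1. It was not made in 17 of 20 alternatives. Leaving out null replicate 1 did not change the difference of -1.28, and over all genes it called 662 higher and 1255 lower, in place of 420 and 675. Plxna4, which transduces Sema3a and Sema6a signals, stood at -5.56, -4.83 and -4.47 in control, at -5.63, -3.98 and -3.68 in null and at -3.60 and -2.85 in Tbx18VP16. Its Tbx18VP16 arrays were the highest, by 1.73 ± 0.60 (SE) against control (adjusted p = 0.140, or 0.0331 without null replicate 1). In 18 of 20 alternatives Plxna4 was not called against control. Plxna2 was -0.83 ± 0.27 (SE) lower than control with no overlap (adjusted p = 0.123), and Plxna3 differed by 0.23 ± 0.25.

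Plxnc1 was lower in Tbx18VP16 than in control, by -1.33 ± 0.34 (SE, adjusted p = 0.0630 in limma). Without control replicate 1 its adjusted p was 0.0299 and without null replicate 1 it was 0.0496. In 17 of 20 alternatives it was not called against control. Tbx18VP16 and null differed by -0.02, with a 95% interval of -0.80 to 0.75. Both contrasts with control share the same 3 control arrays. Plxnb3, a receptor of Sema5a, stood at -5.96, -6.44 and -6.99 in control, at -5.40, -6.06 and -6.62 in null and at -7.40 and -7.54 in Tbx18VP16. It was not well above background in control or Tbx18VP16, so no fold is given between them, and against null it was at least 1.21-fold lower in Tbx18VP16 (log2 difference -1.45 ± 0.41, adjusted p = 0.0961 in limma). It was tested only through 2 null arrays, where it is high, so this p gives no support. Plxnb1, Plxnb2, Plxnd1 and Nrp1 differed from control by -0.08, 0.05, 0.33 and 0.34, with intervals that included 0.

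**Figure D5:**
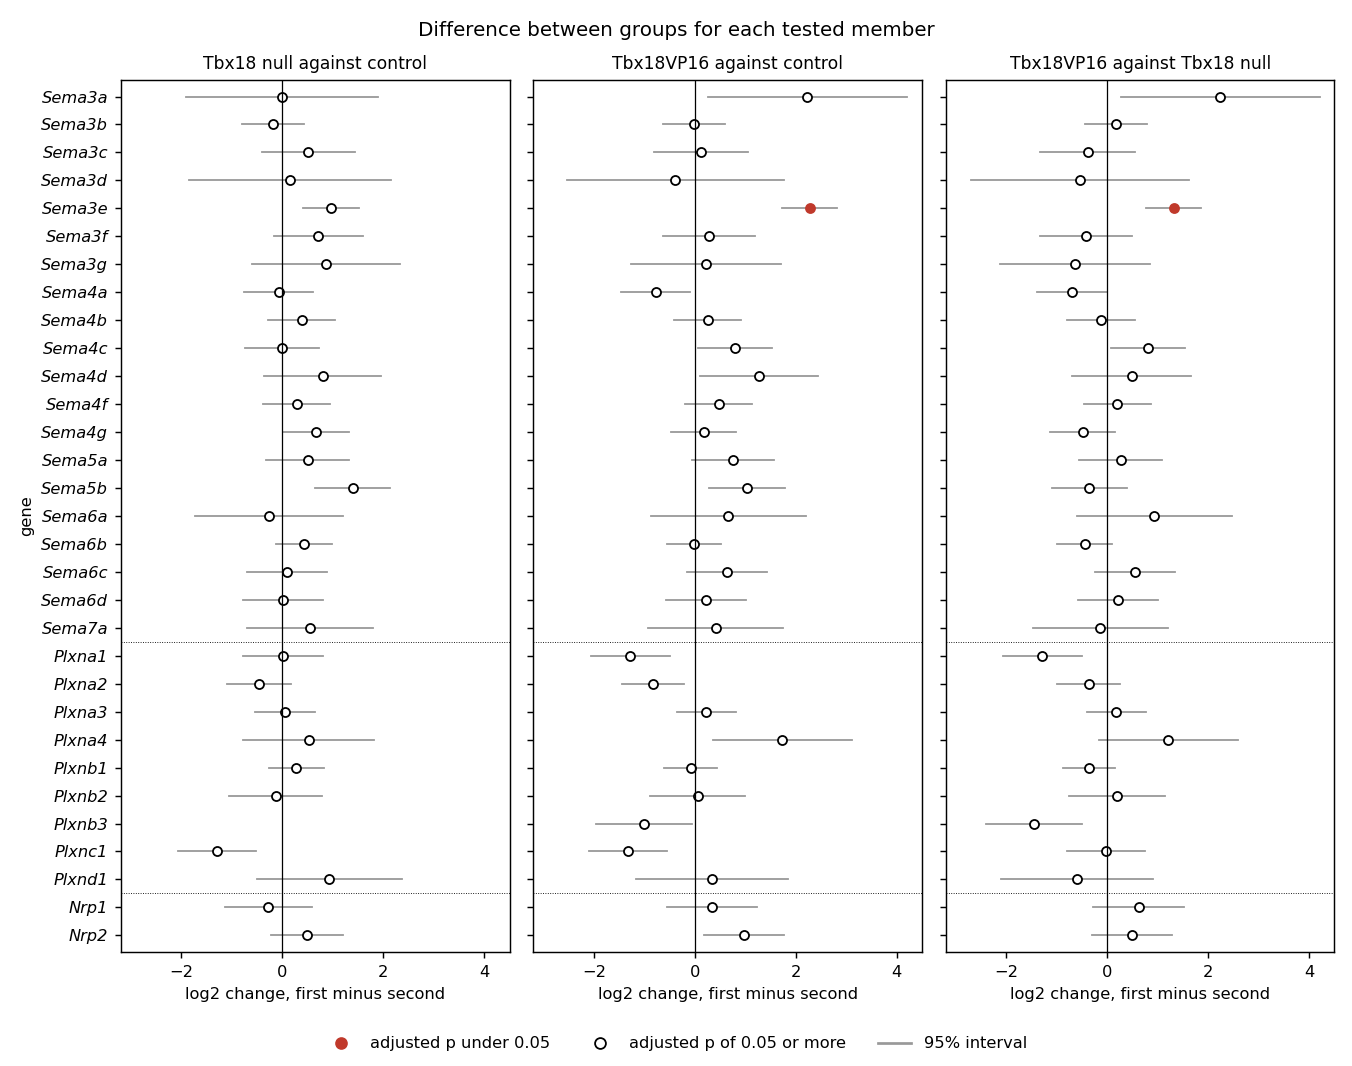
Difference in log2 level (points) with 95% intervals (lines) for each tested member in the 3 comparisons, first group minus second; filled red points have an adjusted p under 0.05. Sema3e is the filled point in both comparisons of Tbx18VP16, at 2.27 and 1.31, and no point is filled in null against control.

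In Tbx18VP16 against null, 15 of 31 members had a higher mean, against 40% of all genes. The family median was -0.02, against -0.15 over all genes. With the percentile over all non-control spots 24 of 31 members were higher, against 67.5% of all genes. At an unadjusted p under 0.05 there were 6 members, against 22% of all genes. Plxnb3, among these 6 and among the lower members below, was tested only through null arrays, where it is high, and adds no support. Arrays did not overlap for 4 higher members, Sema3a, Sema3e, Sema4c and Plxna4, and for 7 lower ones, Plxna1, Plxna2, Plxnb1, Plxnb3, Sema4a, Sema4g and Sema6b; 48.1% of all genes were separated, 16.2% higher and 31.9% lower. These comparisons share arrays with those above. The difference between groups was 1.20 ± 0.60 (SE) for Plxna4 (adjusted p = 0.277 in limma), 0.80 ± 0.32 for Sema4c (0.193) and -0.49 ± 0.28 for Sema4g (0.341). Genes called were 241 higher and 512 lower, 748 and 171 with the percentile over all non-control spots (4.46% in all), and 391 and 395 when limma was run on the authors' deposited value table (3.82%).

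Of 55 listed partners of the family, co-receptors, VEGF ligands that bind neuropilins and cytoplasmic effectors, 49 were tested in null against control and 0 passed in limma, with 4 at an unadjusted p under 0.05. The 3 of smallest p were all lower in null. Vegfd, a VEGF-family ligand of lymphatic receptors, stood at -2.32, -2.50 and -1.05 in control, at -4.31, -3.92 and -3.19 in null and at -4.41 and -4.02 in Tbx18VP16. All control arrays were above all others. Null was lower by -1.85 ± 0.47 (SE, adjusted p = 0.398), and the replicate block, with which 0.933% of all genes passed, gave 0.0397. Chl1, an adhesion molecule that pairs with neuropilin 1, differed by -0.91 ± 0.27 (adjusted p = 0.594, or 0.0815 with the replicate block). Vegfc, a ligand of Nrp2 and Flt4, differed by -0.78 ± 0.30 (adjusted p = 0.905, or 0.0758 with the replicate block).

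In Tbx18VP16 against control, 5 of 52 tested partners fell and 0 rose in limma; 3.28% of all genes fell. They were 1 adhesion co-receptor, 1 VEGF receptor, 2 VEGF ligands and 1 effector. Chl1 stood at 1.44, 1.12 and 1.08 in control, at 0.63, 0.38 and -0.10 in null and at -1.12 and -1.93 in Tbx18VP16. The 3 groups did not overlap, and it fell by 2.73 ± 0.33 (SE, adjusted p = 0.00526). Of the 11 tested markers of neural crest, neurons and glia, 7 were lower and 4 higher in Tbx18VP16 than in control, with 2 called lower and 1 called higher. Against null, 8 were lower and 3 higher. The part of such cells in the Chl1 values was not tested. Vegfc stood at 2.84, 2.12 and 2.25 in control, at 2.0, 1.44 and 1.43 in null and at 0.59 and 0.79 in Tbx18VP16. Its groups did not overlap either, and it fell by 1.71 ± 0.31 (adjusted p = 0.0206), while Vegfd fell by 2.26 ± 0.49 (adjusted p = 0.0401). Kdr, the VEGF receptor 2 of endothelium, fell by 1.34 ± 0.30 (adjusted p = 0.0415), and Mical2, an oxidoreductase that acts on actin, fell by 1.44 ± 0.34 (adjusted p = 0.0490). The sum of the 13 endothelial markers, Kdr among them, was lower in both Tbx18VP16 pools, at 2.08 and 2.52 against 3.65 to 4.45 in control. Of the 11 endothelial markers tested, 9 were lower and 2 higher in Tbx18VP16. Kdr stood at 0.35, 0.20 and 0.20 in null, where the marker sum of replicate 3 was 19.1. The part of endothelial RNA in the Kdr values was not tested.

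These partner calls depended on single pools. Without Tbx18VP16 replicate 1, Chl1 alone of the 5 passed, and without replicate 2 none did (0.0903 to 0.323). Vegfc was lost without control replicate 2 (0.0535), and Vegfd, Kdr and Mical2 were lost without several control or null pools, at 0.0525 to 0.121. Which partners passed changed with the scaling, although Chl1 and Vegfc fell under each of the 3 given next. With quantile normalization Chl1, Vegfc and Kdr fell and 1 partner, Itga1, an integrin subunit, rose. With the array median 2 fell, Chl1 and Vegfc, and Itga1 rose, and with the percentile over all non-control spots the same 2 fell and 2 rose, Itga1 and Trem2. The mean over Kdr's probes gave -0.64 (adjusted p = 0.412) in place of -1.34.

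Against null, 3 of 52 partners fell in Tbx18VP16 and 0 rose; 2.49% of all genes fell. Chl1 fell by 1.83 ± 0.33 (SE, adjusted p = 0.0296 in limma) and Kdr by 1.58 ± 0.30 (0.0329). Met, the receptor for hepatocyte growth factor that can associate with B-type plexins, stood at -3.63, -3.63 and -4.57 in control, at -3.17, -3.68 and -3.95 in null and at -5.37 and -5.43 in Tbx18VP16. Both Tbx18VP16 arrays were the lowest, and it fell by 1.80 ± 0.36 (adjusted p = 0.0408). With the percentile over all non-control spots, none of the 3 passed (0.0559 to 0.0688), and none did without either Tbx18VP16 replicate (0.134 to 0.330). Among other single pools, leaving out null replicate 2 ended all 3 calls (0.0913 to 0.102). Met and Kdr were also lost without null replicate 1 or 3 (0.0546 to 0.0638), and Met and Chl1 without control replicate 2 (0.0648 and 0.0574). Met was lost with quantile normalization (0.05), the array median (0.0531) and normexp (0.0883). Kdr was lost with the mean of its probes (0.105), and Chl1 with the 2 groups alone (0.0594).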

How the data were processed

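RNA of sorted GFP-positive cells from E11.5 kidney rudiments was amplified from 20 ng, but from 10 ng in the third control and null pools, per the labels. The scanner files hold spot intensity values corrected for background by Agilent Feature Extraction 10.7.3.1, per the file headers, with probe positions on mm9. The value table that the authors deposited gives linear intensity; each column has a median of 93.77 and 11190 probes at a floor of 10, so it appears quantile-normalised across arrays, which no source used here states.

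Control and outlier spots (1.86% to 3.14% per array) were left out and the spots of a probe averaged. From each log2 value of the deposited processed signal, the array's 75th percentile over 39429 probes on both designs was subtracted. Genes were named through RefSeq tables of GRCm38.p6: 27508 probes matched an accession, 3544 a symbol and 402 a synonym, while 1810 stayed as in the file and 6165 had an accession or nothing. All 44 member probes have the same sequence and name on both designs; 2 probes named for a member on 1 design only were left out.

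Testing required a probe to exceed background clearly on 3 of 6 arrays or more (null against control) or 2 of 8 (Tbx18VP16 comparisons, 3 group means), with the probe of highest mean per gene. limma 3.58.1 (R 4.3.3, lmFit and eBayes, two-sided) was used with Benjamini-Hochberg adjustment over all genes tested, and checked on simulated data. A fold of at least N is the brighter group's mean over, per array, the dim probe's signal or, if higher, the lowest one well above background. Members shown for every array had an adjusted p under 0.05 or a log2 difference of at least 1 with no overlap. Partners named were up to 6 called ones or, with fewer than 3, the 3 of smallest p. The members and lists were chosen with earlier results of these data known.

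Deviations of same-numbered control and null pools from their group means correlated at 0.794, 0.680 and 0.403, so these numbers pair pools. The main fit does not use this pairing, and blocked values are given where they change a call. Blocked values of Sema5b, Plxnc1, Sema3e, Nrp1, Nrp2, Chl1 and Vegfc are also given. For Tbx18VP16, correlations with same-numbered pools were -0.254 to 0.0585, and the numbers were not used.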

Additional observations from a re-analysis of the deposited data

How the results depend on the processing

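In null against control no member passed under any of the 20 alternatives tried, and with the replicate block, which pairs the pools, 95 genes of the whole table were called higher and 89 lower in place of 0, 39 and 32 in a fit of all 8 arrays, and at most 11 higher and 3 lower elsewhere. For Tbx18VP16 against control, 1 member was called higher and 0 lower; quantile normalization and the authors' value table each gave 2 higher, normexp 0, the percentile over all non-control spots (chosen after seeing the data) 3, and the replicate block, whose numbers do not pair these pools, 5 higher and 3 lower. Leaving out 1 replicate gave 0 to 2 higher and 0 to 2 lower. For Tbx18VP16 against null, with 1 higher and 0 lower, quantile normalization and the authors' value table gave 2 higher, normexp 0, the 2 groups alone 0, the replicate block 3 higher and 2 lower, and leaving out 1 replicate 0 to 1 higher. Members added against control were Sema4c (quantile, authors' table), Sema5b and Nrp2 (non-control spots), Plxna1 and Plxnc1 (without null replicate 1, and without control replicate 3 and 1 respectively), Plxna4 (without null replicate 1), and Nrp2, Plxna4, Sema3a, Sema5b, Plxna1, Plxnb3 and Plxnc1 (replicate block). Against null they were Sema4c (quantile, authors' table) and Plxna4, Sema3a, Plxna1 and Plxnb3 (replicate block). The cause of these moves was not tested; normexp changes the background method and the offset together.

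Calls over all genes moved with the same settings, so the member counts above are to be read beside them. Of 20600 genes, the replicate block called 995 higher and 2645 lower against control, in place of 420 and 675. Against null it called 766 and 2519, in place of 241 and 512. Quantile normalization called 555 higher and 620 lower against control and 353 and 414 against null. Normexp called 210 and 415 against control and 134 and 270 against null; the array median called 408 lower against control and 236 lower against null, and the 2 groups alone 264 lower against null. Leaving out 1 replicate called between 36 and 662 genes higher and between 21 and 1255 lower against control, and between 7 and 279 higher and 4 and 535 lower against null. Among the members, Tbx18 and 6 partners, 735 of 738 results in null against control stayed on their side of the threshold. In Tbx18VP16 it was 697 of 758 against control and 719 of 758 against null, and no called difference reversed. Most of these genes were not called in the main fit, and in null against control none was, so these totals say little about the calls. Of 20 alternatives, the call against control was lost in 14 for Mical2, 11 for Kdr, 10 for Vegfd, 3 for Sema3e, 3 for Vegfc and 1 for Chl1. Against null it was lost in 10 for Met, 7 for Kdr, 6 for Sema3e, 6 for Chl1 and 2 for Tbx18. With 2 Tbx18VP16 arrays and 3 per other group, the number of arrays limits the precision, and dim probes such as Sema3e, Sema3d and Plxnb3 sit near background.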
